A study of Mus musculus with 27 samples.

Results

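Pressure-overloaded adult mouse hearts were set against embryonic hearts, to describe which transcripts of the fetal heart an overloaded adult heart still lacked, which it reached and which it held in excess. The comparison took every library labelled TAC4wk (4) against every library labelled E13.5 (7), so 11 of the 27 libraries of the series. All 57683 listed features entered, and 18797 of them passed the filter on low counts and were tested. The E13.5 group, named for the embryonic day, was 7 libraries of whole hearts of C57BL/6J embryos of unknown sex. The TAC group was 4 libraries of ventricular apexes of C57BL/6J mice aged 12 weeks, after 4 weeks of pressure overload by transverse aortic constriction (TAC), in which a ligature around the aortic arch raises the pressure the left ventricle works against. The labels give 3 of these as male and 1 as female. A further 4 libraries, of ventricular apexes of sham-operated C57BL/6J mice aged 12 weeks, all labelled male, served as the adult reference. Unoperated adults, 6 libraries of mice aged 6 weeks and 6 of mice aged 16 weeks, served as another adult reference where stated. Their titles give them as C57 males. The labels name no transgene or induced mutation in any group. Stage could not be told apart from whole heart against ventricular apex. Sex, which the labels do not give for embryos, was not part of the fits.

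The fetal heart grows by division of its muscle cells, burns mainly glucose and lactate, and builds its sarcomeres from fetal or slow forms of several contractile proteins. After birth the muscle cells largely stop dividing, turn to fatty acid oxidation and replace these forms with adult ones. An adult ventricle under pressure overload is known to express again a set of genes called the fetal gene programme, which includes natriuretic peptides, beta-myosin heavy chain and skeletal alpha-actin.

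Levels are given as CPM, a feature's count relative to the scaled total of its library. Total counts per library were 7543375 to 12646039 at E13.5, 7958592 to 11561952 in sham and 10411417 to 11846819 in TAC hearts. Between 31142 and 32609 features had a count at E13.5, against 26655 to 27109 in TAC hearts. The scaling factors that correct for composition were 1.32 to 1.40 at E13.5 and 0.676 to 0.752 in TAC, and this correction moved the log2 fold changes far. The median over all features tested was -0.17 with it and -1.07 with library size alone, so every difference below is relative to that correction. Counts of Y-linked genes went against the sex label in 2 of the 4 TAC libraries: replicate 3, labelled male, had 1 such count, and the female-labelled library had 389. In sham, all labelled male, 2 of 4 libraries had 2 such counts or fewer. At E13.5, replicates 3 and 6 had 690 and 826 such counts and the others 6 or fewer. Both E13.5 and TAC thus held libraries with many and with few Y-linked counts. Cardiomyocyte markers were present in both groups, at a summed 23410 to 31170 CPM at E13.5 and 152100 to 186300 in TAC.

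The 2 groups differed across most of the transcriptome. By edgeR's quasi-likelihood test (Benjamini-Hochberg adjusted p under 0.05), 8158 features (43.4%) were lower and 6897 (36.7%) higher in TAC than at E13.5. Of the calls, 45.8% were higher, and this share was 35.7% with upper-quartile scaling and 19.8% with library size alone. For the descriptions that follow, a feature was called lower or higher if it passed the test and differed at least 2-fold, within 2-fold if its whole 95% interval lay inside that range, and undecided otherwise. In these terms 5337 features (28.4%) were lower, 3878 (20.6%) higher, 6602 (35.1%) within 2-fold and 2980 undecided. Every TAC library lay below every E13.5 library in 6436 features (34.2%), and above in 6114 (32.5%). Coding genes were centred near the embryonic level, with a median log2 difference of 0.13 over 13063 genes. Of these, 20.2% were lower, 25.3% higher and 42.0% within 2-fold, which is the background for lists of coding genes below. The 5673 tested long noncoding RNA (lncRNA) features, whose names follow the NONCODE collection, had a median of -0.93.

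Fetal-high features were those at least 2-fold higher at E13.5 than in sham hearts by the same test, with a mean of at least 1 CPM at E13.5. Of 18677 features tested between E13.5 and sham, 4672 (25.0%) were called at least 2-fold higher and 3718 (19.9%) at least 2-fold lower, and 4279 met the whole rule and were also tested in TAC. The rule used the same E13.5 libraries as the comparison with TAC, so the counts that follow describe the set and test nothing. TAC hearts remained at least 2-fold below the embryonic level in 3613 fetal-high features (84.4%), were within 2-fold in 267 (6.24%), above in 6 (0.14%) and undecided in 393 (9.18%). The wider the gap between E13.5 and sham, the fewer were reached. Of 2103 features with a gap of 1 to under 2 on the log2 scale, 250 were within 2-fold in TAC. That number was 17 of 1351 for gaps of 2 to under 4, and 0 of 825 for gaps of 4 or more, of which 816 were lower and 9 undecided. No count was found in any TAC library for 176 fetal-high features. The opposite set of 3499 fetal-low features, at least 2-fold lower at E13.5 than in sham, had 3040 members (86.9%) above the embryonic level in TAC, 173 within 2-fold, 283 undecided and 3 below.

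**Figure D1:**
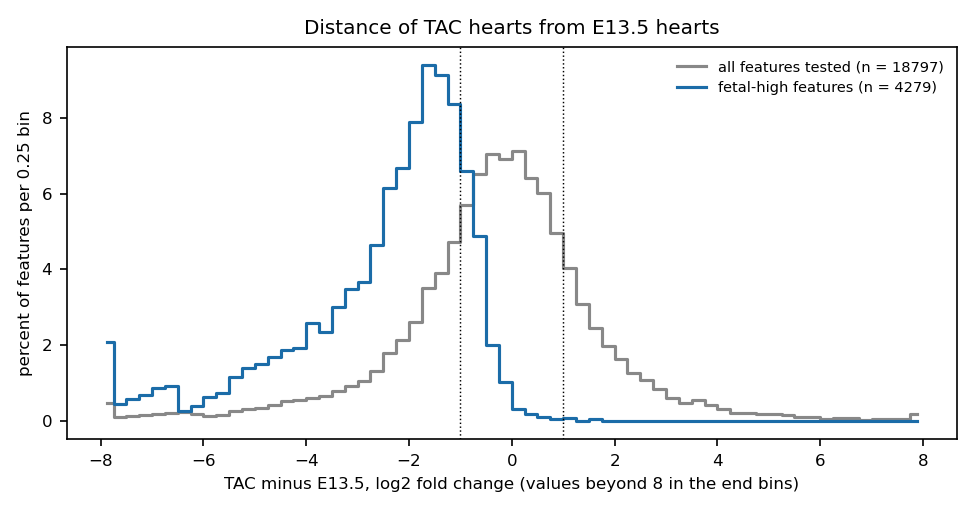
Percent of features (y axis) by log2 fold change of TAC minus E13.5 in bins of 0.25 (x axis), for all 18797 features tested (grey) and the 4279 fetal-high features (blue). Dotted lines mark 2-fold, and most of the fetal-high features, with a median of -1.995, lie left of the lower line.

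The fetal-high rule depends on its adult reference. The 12 unoperated adults of the series (6 at 6 weeks, 6 at 16 weeks) were sequenced less deeply and carry another base quality encoding in the labels. With them in place of sham, 2685 features were fetal-high. Of these, 1966 were lower in TAC, 446 within 2-fold, 5 higher and 268 undecided. These libraries also allow a look at TAC against sham that shares no library with the choice of features. TAC against sham called 2847 of 14555 features higher (19.6%) and 2681 lower (18.4%). Among 2177 tested features that were at least 2-fold higher at E13.5 than in unoperated adults, 607 (27.9%) were higher and 169 (7.76%) lower in TAC than in sham, and their median log2 difference was 0.16. Among 2611 features lower at E13.5, 504 (19.3%) were higher and 762 (29.2%) lower in TAC, with a median of -0.05. The median over all features in TAC against sham was 0.00047. Most of the features higher at E13.5 were coding (1933 of 2177). Of these coding genes, 30.6% were higher and 5.85% lower in TAC than in sham (median 0.193). Of 2305 coding genes lower at E13.5, 21% were higher and 26.2% lower (median -0.0175). Coding genes as a whole also leaned upward, with 23.5% of 11617 higher and 14.2% lower (median 0.0629). These 2 shares are the background for counts of list members in TAC against sham below.

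As a measure over all genes, the root mean square log2 difference of each library from the mean E13.5 profile was taken over the 14168 features tested in all 3 comparisons, on log2(CPM + 1). Each E13.5 library lay 0.18 to 0.28 from the mean of the others. Sham hearts lay 1.42 ± 0.01 away (SD, n = 4, range 1.40 to 1.43) and TAC hearts 1.42 ± 0.03 (n = 4, range 1.39 to 1.46). The groups overlapped, and their difference of 0.0036 did not pass (exact permutation test, two-sided, p = 0.886, where the smallest p this design allows is 0.0286). With library size alone the difference was -0.037 (exact permutation p = 0.0571), TAC being nearer.

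**Figure D2:**
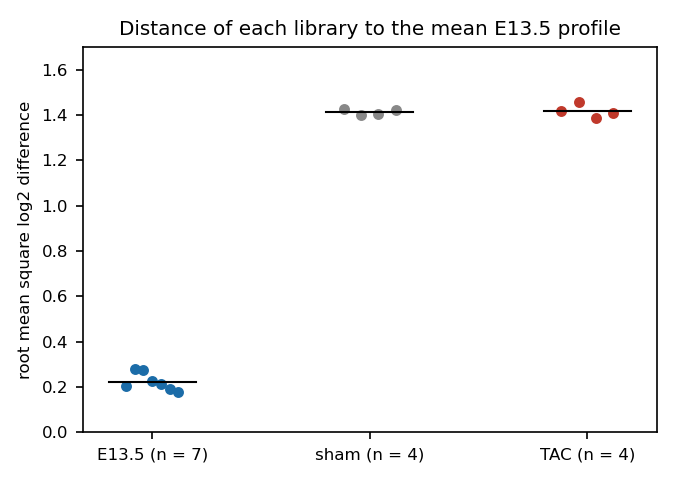
Root mean square log2 difference from the mean E13.5 profile (y axis), 1 point per library and a bar for each group mean. Sham and TAC libraries overlap at 1.39 to 1.46, while E13.5 libraries lie between 0.18 and 0.28.

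The fetal programme list held 17 genes, of which 16 were tested: 9 were lower in TAC than at E13.5, 5 were higher, 2 were undecided and none was within 2-fold (median log2 difference -1.60, against -0.17 over all features). Ckb was not measurable, because none of its exonic bases lies outside other features. The programme therefore held members far above and members far below the embryonic level in the same hearts. In TAC against sham, which shares the TAC libraries, 11 members were higher and 1 lower.

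Acta1, skeletal alpha-actin (chromosome 8, 126415669 to 126418651, mm9), overshot most. Its levels in TAC replicates 1, 2, 3 and the female-labelled replicate F1 were 15770, 11750, 6286 and 8519 CPM. At E13.5 the lowest, median and highest levels were 210, 249 and 281 CPM, and in sham replicates 1 to 4 they were 457, 297, 438 and 403 CPM. All TAC libraries lay far above every embryonic one, with a log2 difference of 5.40 ± 0.21 (SE, adjusted p = 3.33e-10). Unlike Nppa, Acta1 was not fetal-high, since sham hearts already held more of it than embryos (log2 difference of E13.5 minus sham -0.76). Scaled over all 27 libraries, unoperated adults held 4.77 to 463 CPM of Acta1 at 6 weeks (median 210) and 54.5 to 614 at 16 weeks (median 159.5). They overlapped E13.5 (203 to 269, median 243) and lay below TAC (5522 to 13760).

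Ankrd1, a nuclear and sarcomeric stretch-response protein, stood at 9212, 10400, 7798 and 5636 CPM in TAC replicates 1, 2, 3 and F1. The E13.5 libraries held 444 to 649 CPM with a median of 514, and sham replicates 2325, 917, 1820 and 2354 CPM. No libraries of the 3 groups overlapped, and TAC exceeded E13.5 by 3.90 ± 0.14 on the log2 scale (adjusted p = 7.33e-13). Nppb, brain natriuretic peptide, stood at 699, 1056, 650 and 644 CPM in TAC, against 31.1 to 56.3 with a median of 50.8 at E13.5 and 276, 133, 121 and 260 in sham. Its order was likewise embryo, sham, TAC without overlap, and the log2 difference of TAC minus E13.5 was 3.99 ± 0.17 (adjusted p = 4.07e-10). Xirp1, a repeat protein of the intercalated disc, was at 1122, 1413, 1129 and 1116 CPM in TAC and at 378 to 483 (median 439) at E13.5, a log2 difference of 1.41 ± 0.08 (adjusted p = 1.03e-12). Scaled over all 27 libraries, sham held 690 to 759 CPM of Xirp1, above every embryo (366 to 464). Unoperated adults at 6 weeks overlapped E13.5 for Ankrd1 (367 to 1671 and 434 to 622) and Nppb (3.97 to 274 and 30.4 to 54.0). At 16 weeks they lay above E13.5 for both (792 to 1934 and 105 to 196.5). TAC lay above both ages for these genes, but overlapped 6 weeks for Xirp1 (979 to 1208 and 686 to 982).

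Nppa, atrial natriuretic peptide (chromosome 4, 147374831 to 147376188, mm9), was the member of this list that was fetal-high and was exceeded. It stood at 3717, 2880, 4431 and 3119 CPM in TAC replicates 1, 2, 3 and F1, at 858 to 1321 CPM with a median of 1100 at E13.5, and at 236, 225, 238 and 227 CPM in sham. The groups did not overlap, and TAC was above E13.5 by 1.66 ± 0.11 on the log2 scale (adjusted p = 2.55e-10). Unoperated adults, scaled over all 27 libraries, spread widely around the embryonic level: 79.1 to 1067 CPM at 6 weeks (median 638) and 620 to 1430 at 16 weeks (median 1044). On that scale TAC libraries stood at 2461 to 3893 CPM, above all of them.

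**Figure D3:**
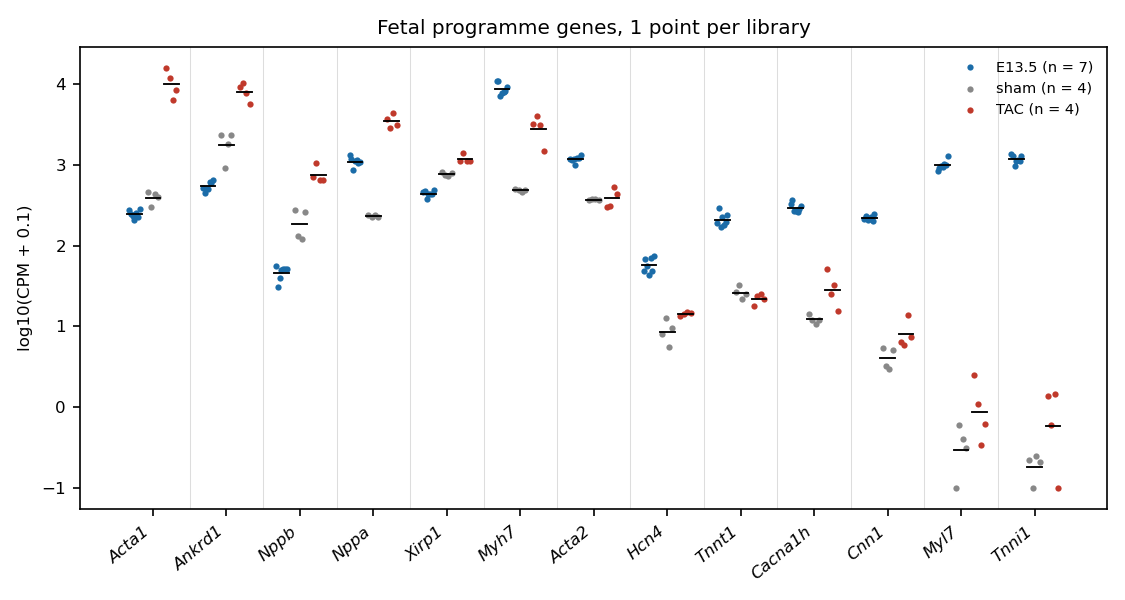
Levels of 13 fetal programme genes on a log scale (y axis, log10 of CPM plus 0.1), 1 point per library in E13.5 (blue), sham (grey) and TAC (red), with bars for group means of the log values. The 5 genes on the left lie above the embryonic level in TAC and the 8 on the right below it.

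Sequence upstream of 2 overshooting natriuretic peptide genes, of the most overshooting actin gene and of a light chain gene that stayed near 0 is shown because these genes are grouped in 1 programme yet differ so widely in TAC. The windows are the 150 bases before the RefSeq start (assembly GRCm38.p6), 5′ to 3′ on the gene's strand. Capitals mark matches on either strand to the CArG box (bound by serum response factor), to CATTCC, a core bound by TEAD factors, and to GATAA, a core bound by zinc finger factors such as Gata4. They lie at chr4:148000572-148000721 (plus strand) for Nppa, chr4:147985750-147985899 (plus) for Nppb, chr8:123894776-123894925 (minus) for Acta1 and chr11:5898783-5898932 (minus) for Myl7.
Nppa: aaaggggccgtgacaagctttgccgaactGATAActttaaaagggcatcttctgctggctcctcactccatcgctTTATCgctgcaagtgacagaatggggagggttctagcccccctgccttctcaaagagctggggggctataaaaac
Nppb: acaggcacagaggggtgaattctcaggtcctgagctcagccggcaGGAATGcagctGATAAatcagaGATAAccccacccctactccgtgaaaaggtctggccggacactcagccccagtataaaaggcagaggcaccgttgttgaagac
Acta1: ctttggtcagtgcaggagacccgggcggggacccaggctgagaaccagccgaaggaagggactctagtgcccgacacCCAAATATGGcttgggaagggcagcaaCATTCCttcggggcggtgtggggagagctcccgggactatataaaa
Myl7: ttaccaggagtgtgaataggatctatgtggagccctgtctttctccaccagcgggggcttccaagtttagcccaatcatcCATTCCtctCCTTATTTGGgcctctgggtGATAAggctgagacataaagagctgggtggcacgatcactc
A CArG box was present in 0.916% of the 32851 listed promoter windows of this length, CATTCC in 7.59% and GATAA in 13.4%. The windows of Acta1, far above the embryonic level in TAC, and of Myl7, far below it, each held 1 CArG box (-73 to -64 and -61 to -52 from the start) and 1 CATTCC (-46 to -41 and -70 to -65), with no overlap between them. Myl7 also held 1 GATAA (-41 to -37). The windows of Nppa and Nppb held 2 GATAA matches each and no CArG box in these letters, and that of Nppb held 1 CATTCC (-105 to -100). The matches describe the sequence, and binding was not measured.

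Myh7, beta-myosin heavy chain, the slow motor protein of the fetal ventricle (chromosome 14, 55589525 to 55613471, mm9), lay between sham and embryo. Its levels were 3195, 4057, 3122 and 1501 CPM in TAC replicates 1, 2, 3 and F1, 7004 to 10990 with a median of 8233 at E13.5, and 499, 494, 458 and 491 in sham. The 3 groups did not overlap. TAC was 1.60 ± 0.24 below E13.5 on the log2 scale (adjusted p = 1.07e-04) and 2.44 ± 0.29 above sham (adjusted p = 9.03e-04). Unoperated adults held as much as TAC hearts: on the scale over 27 libraries Myh7 was 2359 to 2885 CPM at 6 weeks, 2575 to 3493 at 16 weeks, 458 to 467 in sham and 1347 to 3468 in TAC. TAC libraries thus lay above sham and overlapped unoperated adults, whose libraries were shallower.

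Other contractile members stayed close to absent. Tnni1, slow skeletal troponin I (chromosome 1, 137679642 to 137707566, mm9), stood at 969 to 1351 CPM at E13.5 (median 1134) and at 1.28, 0.50, 1.35 and 0 CPM in TAC, where sham had 0.15 CPM or less. The log2 difference of TAC minus E13.5 was -10.55 ± 0.27 (adjusted p = 3.02e-14). Myl7, the atrial regulatory light chain (chromosome 11, 5796640 to 5798785, mm9), stood at 835 to 1275 CPM at E13.5 (median 975) and at 2.43, 0.999, 0.245 and 0.518 CPM in TAC (-9.90 ± 0.29, or -10.70 without TAC replicate 1). Myl4, the atrial essential light chain, was at 799 ± 114 CPM (SD, n = 7) against 6.74 ± 3.27 (n = 4), with only 29.3% of its exonic bases outside other features. As Myl7 and Myl4 mark atrial muscle, and embryonic samples were whole hearts, stage and chamber cannot be told apart for them. In bulk samples such as these, fewer cells of a type and less RNA per cell cannot be told apart either.

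Smooth-muscle and conduction members of the list were also lower in TAC. Cnn1, calponin of smooth and early cardiac muscle, was 4.72 lower on the log2 scale (SE 0.18), Cacna1h, a T-type calcium channel, 3.30 lower (0.28), Tnnt1, slow troponin T, 3.28 lower (0.17), Hcn4, the pacemaker channel, 2.06 lower (0.17) and Acta2, smooth muscle alpha-actin, 1.60 lower (0.15). Hcn4, Cnn1 and Cacna1h were nevertheless higher in TAC than in sham (adjusted p = 0.0295, 0.0374 and 0.0358), Tnnt1 was lower (0.0161), and Acta2 did not pass (log2 difference -0.08, adjusted p = 0.793). Against unoperated adults, on the scale over 27 libraries, the order differed: Hcn4 was at 11.6 to 13.1 CPM in TAC, below all of them (25.0 to 66.8 at 6 weeks, 14.5 to 21.0 at 16 weeks). The TAC ranges of Cnn1 (5.02 to 12.3) and Cacna1h (13.8 to 44.2) overlapped those at 6 weeks (1.38 to 6.94 and 5.08 to 61.2), while at 16 weeks Cacna1h lay below TAC (3.39 to 7.57). Tagln (-0.80 ± 0.17) and Cacna1g (-0.75 ± 0.20) passed the test against E13.5 without being decided as to 2-fold.

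Pairs of related genes, listed here as a fetal and an adult form, gave a readout that needs no scaling between libraries. Shares of the fetal form were computed per kilobase of exon that belongs to that gene alone, and 19 of 20 listed pairs could be measured. TAC hearts lay below every E13.5 library in 18 of the 19 pairs and above every one in 1. For Myh7 of Myh7 and Myh6, the share was 53.1% to 64.9% at E13.5, 0.55% to 0.69% in sham, and 3.84%, 4.10%, 4.05% and 1.76% in TAC replicates 1, 2, 3 and F1. Unoperated adults averaged 4.60% ± 0.37 (SD, n = 6) at 6 weeks and 5.08% ± 0.51 (n = 6) at 16 weeks. TAC hearts were thus above sham, at or below unoperated adults, and far from the embryonic share.

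Acta1 of Acta1 and Actc1, the cardiac alpha-actin, was the pair that ran the other way: 3.31% to 4.08% at E13.5, 2.08% to 3.197% in sham and 46.3%, 35.3%, 25.5% and 31.5% in TAC. The troponin I pair gave 72.1% to 77.8% Tnni1 at E13.5 and at most 0.026% in TAC. In metabolism, the glucose transporter Slc2a1 made up 87.0% to 91.4% of Slc2a1 and Slc2a4 at E13.5, 3.89% to 4.91% in sham and 5.05% to 7.45% in TAC. Hexokinase 1 made up 67.9% to 73.4%, 24.5% to 27.6% and 28.8% to 36.8% of Hk1 and Hk2 in these groups. Platelet phosphofructokinase made up 34.3% to 39.6%, 1.97% to 2.55% and 4.36% to 5.57% of Pfkp and Pfkm. In these 3 metabolic pairs every TAC library lay above every sham library, and each share stayed nearer to sham than to the embryo. Unoperated adults lay lower than TAC for Slc2a1 (2.02% to 3.80% over both ages), but overlapped TAC for Hk1 (26.7% to 36.7%) and Pfkp (3.07% to 7.60%).

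TAC lay above every sham library in 10 of the 19 pairs, overlapped sham in 8 and lay below it in 1. The exception was Cpt1a of Cpt1a and Cpt1b, the liver and muscle forms of the fatty acid importer of mitochondria, at 8.16% to 9.90% in TAC, 15.3% to 16.5% in sham and 24.2% to 34.0% at E13.5. Unoperated adults, at 7.51% to 13.8%, overlapped TAC. Only 5.2% of Cpt1b's exonic bases lie outside other features. Rpl3 of Rpl3 and Rpl3l, a ribosomal protein and its muscle form, moved from 95.1% to 100% at E13.5 to 0.92% to 2.67% in TAC and 0.16% to 0.55% in sham. Rpl3 and Eef1a1 have many near-identical copies in the genome, so their counts are uncertain.

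**Figure D4:**
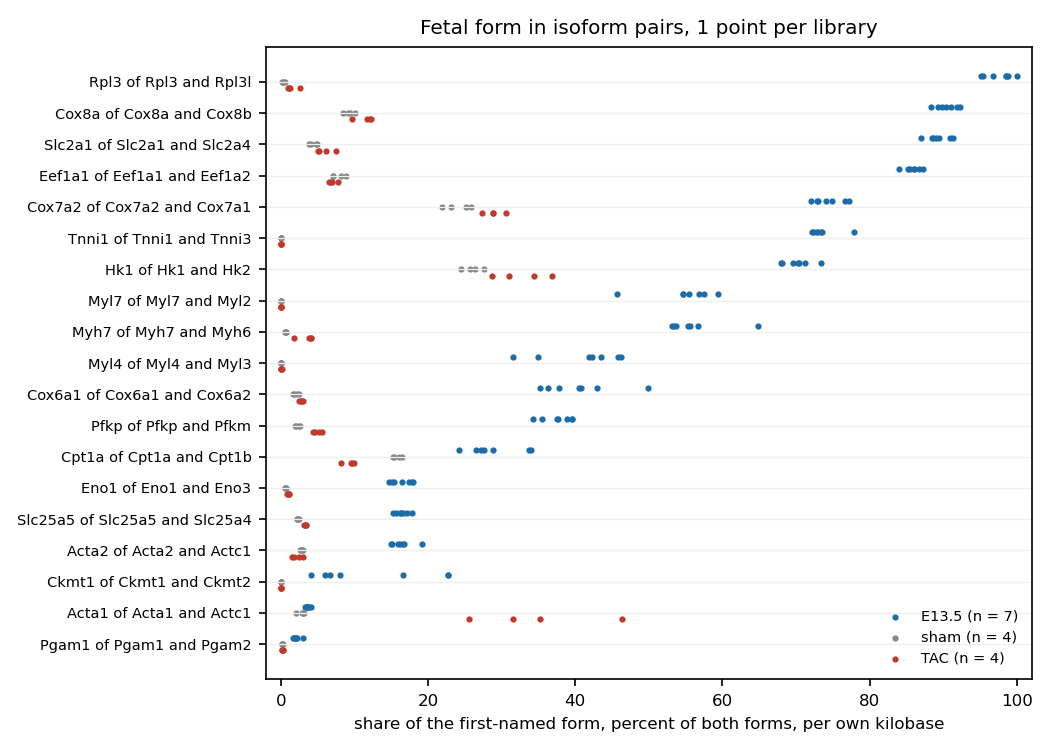
Share of the first-named form, listed as fetal, in 19 isoform pairs (x axis, percent of both forms per own kilobase), 1 point per library in E13.5 (blue), sham (grey) and TAC (red). Only the pair of Acta1 and Actc1 has TAC libraries, at 25.5% to 46.3%, to the right of the embryonic ones.

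Beyond Nppa, 5 fetal-high features were exceeded, all coding genes. Arntl, the clock transcription factor BMAL1, stood at 24.6, 24.5, 10.2 and 17.5 CPM in TAC, at 4.51 to 7.86 (median 6.25) at E13.5 and at 1.68, 1.49, 2.12 and 2.59 in sham. TAC lay above every embryo (log2 difference 1.54 ± 0.20, adjusted p = 2.84e-06). On the scale over 27 libraries, unoperated adults ranged from 5.08 to 39.1 CPM over both ages, overlapping both TAC (8.92 to 21.4) and E13.5 (4.42 to 7.69). The hour of collection was not given in the sources used here. Frzb, a secreted Wnt antagonist, was at 23.4, 17.0, 27.9 and 15.3 CPM in TAC and at 8.18 to 11.3 (median 9.16) at E13.5, without overlap (1.13 ± 0.14, adjusted p = 6.74e-07). On the scale over 27 libraries, unoperated adults held 4.98 to 10.6 CPM of Frzb over both ages. They overlapped E13.5 (7.84 to 10.98) and lay below TAC (13.7 to 24.5), and sham was at 2.94 to 5.53. Timp1, an inhibitor of matrix metalloproteinases, was at 20.1, 18.99, 59.0 and 20.7 CPM in TAC, 12.4 to 15.5 at E13.5 and 1.97 to 4.72 in sham (1.12 ± 0.30, adjusted p = 0.00553). Replicate 3 was the high TAC library for Timp1, and it was 1 of the 2 that went against their sex label. With library size alone, Frzb (0.23, adjusted p = 0.171) and Timp1 (0.24, adjusted p = 0.5005) no longer passed.

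Fbln7 and Cilp2, which fell under the minimum of 5 CPM for naming and were chosen after their values were seen, completed the 6. Fbln7, a fibulin, averaged 4.02 ± 1.40 CPM in TAC (SD, n = 4) and 1.74 ± 0.49 at E13.5 (n = 7). Cilp2, a cartilage matrix protein, averaged 3.67 ± 2.32 and 1.59 ± 0.47 CPM, and its log2 difference of 1.17 was 0.76 without TAC replicate F1 (adjusted p = 0.0522). For both genes TAC and E13.5 libraries overlapped, and with library size alone neither passed (adjusted p = 0.294 and 0.476).

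Among the 267 fetal-high features within 2-fold of the embryo, 10 coding genes were named by their rise over sham. Thbs4, thrombospondin 4, a matrix protein of stressed muscle and tendon, stood at 199, 75.8, 127 and 95.6 CPM in TAC, at 83.8 to 132 (median 106) at E13.5 and at 5.65, 5.84, 6.82 and 7.23 in sham. TAC and embryonic libraries overlapped, with a log2 difference of 0.20 ± 0.25 (adjusted p = 0.472), and TAC exceeded sham by 4.12 ± 0.40 (adjusted p = 4.04e-04). Col1a1, the main chain of type I collagen, stood at 1152, 768, 1441 and 839 CPM in TAC, at 928 to 2231 (median 1178) at E13.5 and at 213 to 291 in sham (TAC minus E13.5 -0.33 ± 0.28, adjusted p = 0.289). The levels of Mfap4, a microfibril protein, were 178, 209, 138 and 123 CPM in TAC and 101 to 240 (median 169) at E13.5, against 30.9 to 42.4 in sham (-0.08 ± 0.22, adjusted p = 0.738).

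Meox1, a homeobox factor of mesoderm and activated fibroblasts, stood at 59.5, 56.0, 36.0 and 59.4 CPM in TAC, at 30.6 to 46.0 (median 44.2) at E13.5 and at 7.93 to 18.3 in sham. Its small excess over E13.5 (0.32 ± 0.14, adjusted p = 0.0461) lost its call without any 1 of 8 of the 11 libraries (adjusted p = 0.0533 to 0.127). The other genes named by this rule were the matrix protease Adamts4 (8.66 CPM in TAC, 8.80 at E13.5), the glycosyltransferase Mgat5b (6.40 and 5.35, and above E13.5 with an adjusted p of 0.00900 without TAC replicate 3), Col16a1 (52.6 and 76.7), the Wnt inhibitor Nkd2 (12.4 and 8.56), Rps16 (27.7 and 35.9) and the histone H2afz (6.503 and 9.97). Rps16 and H2afz have near-identical copies elsewhere in the genome, and their counts are uncertain. On the scale over 27 libraries Rps16 stood in unoperated adults (23.4 to 42.7 CPM) where it stood at E13.5 (27.97 to 45.9), and every sham library was lower (4.09 to 13.53). On that scale Meox1 in unoperated adults at 6 weeks (11.9 to 37.9 CPM) overlapped E13.5 (29.7 to 44.3) and TAC (31.6 to 53.3). At 16 weeks Meox1 (14.6 to 21.8) lay below both. H2afz at 16 weeks (2.42 to 7.965) also overlapped both, and at 6 weeks (1.25 to 4.63) it overlapped TAC only. On the scale over 15 libraries all 10 overlapped between TAC and E13.5. All 10 were called higher in TAC than in sham, the measure by which they were chosen. On the scale over 27 libraries, 2 of them lay below every embryo in TAC. These were Col16a1 (29.8 to 57.6 CPM in TAC, 63.4 to 86.2 at E13.5) and H2afz (4.13 to 7.05 and 7.68 to 12.1). Both also passed as lower than E13.5 with sham, TAC and E13.5 in 1 fit (-0.57 and -0.65, adjusted p = 0.00106 and 0.00165). With library size alone Thbs4, Mgat5b, Meox1 and Nkd2 turned to the lower side, by 0.39 to 0.70 on the log2 scale, and Col1a1 stood at -1.23.

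Matrix genes were described by 3 lists. Of 23 tested collagens, 5 were lower in TAC than at E13.5, 11 higher, 3 within 2-fold and 4 undecided (median log2 difference 0.50, and -0.39 with library size alone). Over all coding genes tested, 20.2% were lower, 25.3% higher and 42.0% within 2-fold, so the number lower does not stand out. The 5 lower ones were Col2a1, Col9a1, Col11a1, Col12a1 and Col18a1, the last 3 named after their values were seen. Col2a1 and Col9a1, collagens of cartilage and of valve primordia, had the largest deficit: Col9a1 had no count in TAC and was at least 224-fold lower, and Col2a1 had 2 counts and a ratio of 2669 (95% counting interval 739 to 22040). Col8a1, a short-chain collagen of remodelling tissue, averaged 172.5 ± 49.2 CPM in TAC against 5.81 ± 0.90 at E13.5, a log2 difference of 4.88 ± 0.17. Col5a3 was higher by 7.72 ± 0.29 (8.33 without E13.5 replicate 3), and Col1a2 was within 2-fold (749 and 784 CPM).

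Of 29 tested matricellular and glycoprotein genes, 7 were lower, 7 higher, 11 within 2-fold and 4 undecided (median 0.16, but -0.14 with upper-quartile scaling and -0.74 with library size alone). This split is close to that over all coding genes tested (20.2% lower, 25.3% higher, 42.0% within). Fbn2, the fibrillin of embryonic tissue, was at 5.74 ± 1.68 CPM in TAC and 759 ± 59.5 at E13.5 (-7.07 ± 0.14), while Fbn1, the fibrillin of adult tissue, was within 2-fold at 586.5 ± 135 and 519 ± 50.7 CPM. Hapln1, a hyaluronan link protein of the cardiac jelly and cushions, had 1 count in TAC (ratio 983, 95% counting interval 176 to 38840). Sparc, a collagen-binding glycoprotein, was within 2-fold at 649 and 502 CPM, and above E13.5 by 0.35 ± 0.08, a direction that turned to -0.55 with library size alone. Cilp, cartilage intermediate layer protein, far exceeded the embryo: 417, 184, 326 and 211 CPM in TAC, 10.5 to 20.8 in sham and 0.29 to 0.87 (median 0.41) at E13.5 (9.20 ± 0.32). Mfap5 was higher by 4.36 ± 0.10.

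Among 22 matrix enzymes and inhibitors, 5 were lower, 8 higher, 4 within 2-fold and 5 undecided (median 0.68, and -0.22 with library size alone). The number lower does not stand out here either, beside 20.2% of all coding genes tested (25.3% higher, 42.0% within 2-fold). P4ha3, a collagen prolyl hydroxylase subunit, was at 1.01 ± 0.40 CPM in TAC and 26.9 ± 5.98 at E13.5. Adamts8, a matrix protease, was at 4.49 ± 1.55 and 19.1 ± 1.18, having been at 0.87 in sham. Timp4 (19.1 and 0.18 CPM) and Adamtsl2 (153 and 24.0 CPM) were higher in TAC. Mmp2, a gelatinase, was within 2-fold at 266 and 187 CPM. The summed level of the 10 fibroblast markers, some of them matrix genes, was 5120 to 6574 CPM in TAC, 3329 to 3674 in sham and 1998 to 3920 at E13.5, and 6 of the 10 were called higher in TAC than in sham. Their part in the matrix results was not tested.

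Of the lists, cell division genes held the most members that TAC hearts still lacked. Of 38 tested, 36 were lower, Gmnn was within 2-fold and 1 was undecided, with a median log2 difference of -4.56 (all features -0.17). Their summed level was 2803 to 3309 CPM at E13.5, 186 to 244 in sham and 216 to 295 in TAC. Bub1, a spindle checkpoint kinase, was at 14.2 ± 1.91 CPM at E13.5 and 0.19 ± 0.12 in TAC (-6.17 ± 0.27), and cyclin A2 (Ccna2) at 114 ± 12.5 and 2.70 ± 0.995 (-5.41 ± 0.16). Gmnn, a licensing inhibitor of replication, was above E13.5 by 0.59 ± 0.13, which turned to -0.31 with library size alone.

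Of 14 tested cell cycle regulators, 4 were lower, 2 higher, 4 within 2-fold and 4 undecided (median 0.07), a split close to that over all features (28.4%, 20.6% and 35.1%), so the list as a whole does not stand out. Cdkn1c, an imprinted cell cycle inhibitor, was at 29.1 ± 3.18 CPM in TAC and 542 ± 111 at E13.5, and Rbl1, a pocket protein of dividing cells, at 3.56 ± 0.79 and 30.9 ± 2.42. Cdkn1a, the inhibitor p21, went the other way, at 129, 103, 90.3 and 78.2 CPM in TAC replicates 1, 2, 3 and F1 against 24.7 to 33.8 (median 27.8) at E13.5 and 24.6 to 33.0 in sham. TAC lay above both groups (TAC minus E13.5 1.76 ± 0.11, adjusted p = 2.79e-10), although unoperated adults at 6 weeks reached 140 CPM on the scale over 27 libraries.

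All 13 tested imprinted growth genes were lower (median -4.24). Igf2, insulin-like growth factor 2, the main fetal growth factor (chromosome 7, 149836673 to 149852721, mm9), was at 3831 to 5108 CPM at E13.5 (median 4719), at 11.9, 12.5, 13.46 and 12.4 in TAC and at 23.2, 13.7, 24.7 and 18.03 in sham. TAC lay below both groups, by 8.54 ± 0.13 (adjusted p = 8.18e-21) and by 0.82 ± 0.17 (adjusted p = 0.00206) on the log2 scale. Dlk1, an inhibitor of differentiation, had no count in TAC and was at least 49.4-fold lower, with 15.6% of its exonic bases outside other features. Of 13 tested oncofetal genes 11 were lower, Sall4 was within 2-fold and 1 was undecided (median -4.07). Hmga2, a chromatin protein of growing tissue, was at 27.6 to 43.5 CPM at E13.5 and without a count in any TAC or sham library, and was at least 346-fold lower in TAC. Igf2bp1, an oncofetal mRNA-binding protein, was at least 1343-fold lower, with 47.0% of its exonic bases outside other features.

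All 7 globins were lower. Hbb-y, an embryonic beta-like globin, had 1187270 counts at E13.5 and none in TAC, at least 135800-fold lower. Hba-x, an embryonic alpha-like globin, had 1 count in TAC and Hbb-bh1 none (at least 1043-fold lower). Erythroid markers, which include these globins, summed to 10900 to 41830 CPM at E13.5 and 96.1 to 103 in TAC, and the part of blood cells in this group was not tested. Adult and embryonic globins share near-identical sequence, and counts between the copies are uncertain.

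Developmental ligands and pathway genes were mostly lower: 26 of 37, with 6 within 2-fold, 3 higher and 2 undecided (median -1.56). Bmp10, a growth factor of the trabeculating heart, had 3 counts in TAC (ratio 695, 95% counting interval 238 to 3369), and Gpc3, a heparan sulphate proteoglycan of growing organs, was at 4.08 ± 1.08 CPM against 495 ± 27.1. Fgf16 (15.5 and 0.12 CPM) and Heyl, a Notch target (97.3 and 30.9), were higher in TAC, and the receptor Notch1 was within 2-fold (312 and 234 CPM).

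Of 35 tested cardiac transcription factors, 15 were within 2-fold, 15 lower, 1 higher and 4 undecided (median -0.32, and -1.22 with library size alone). Over all coding genes tested, 42.0% were within 2-fold, 20.2% lower and 25.3% higher, so the number within 2-fold does not stand out. Gata4, a core cardiac factor, was at 334 ± 29.6 CPM in TAC and 330 ± 29.6 at E13.5 (log2 difference -0.002 ± 0.07). Mef2d (437 and 244 CPM) and Myocd, a coactivator of serum response factor (184 and 225 CPM), were also within 2-fold. Hand1, a factor of the embryonic left ventricle and outflow tract, was at 29.8 to 44.3 CPM (median 34.0) at E13.5 and had no count in TAC or sham, at least 388-fold lower in TAC. Gata5 had 2 counts (ratio 689, 95% counting interval 191 to 5687). Sox17, an endothelial factor, was the gene that was higher (24.6 and 3.47 CPM).

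By the rule of largest change among well-measured coding genes, the 10 lowest in TAC were Hbb-y, Hba-x, Hbb-bh1, Hsd3b6, Dgkk, Hand1, Hmga2, Tmem163, Col2a1 and Col9a1. Hsd3b6, a steroid dehydrogenase, had 1 count in TAC against a mean of 267 CPM at E13.5 (ratio 8078, 95% counting interval 1450 to 319100). Dgkk, a diacylglycerol kinase, and Tmem163, a membrane protein, had none and were at least 545-fold and 270-fold lower. All 10 had at most 0.07 CPM on average in TAC and in sham, which is near the level of 1 or 2 counts per group.

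On the other side, mature contractile genes exceeded the embryo in nearly every member. Of 25 adult sarcomere genes 24 were higher and Nebl was within 2-fold (median 2.80, and 1.89 with library size alone). Xirp2, an actin-binding repeat protein, was at 2091, 1603, 1984 and 1881 CPM in TAC, at 704 to 1018 in sham and at 1.18 to 2.83 (median 1.96) at E13.5. All 3 groups were apart, with TAC minus E13.5 at 9.83 ± 0.14 (adjusted p = 9.30e-20) and TAC minus sham at 0.92 ± 0.12 (adjusted p = 2.34e-04). Myot, a Z-disc protein, was higher by 10.70 ± 0.33. For Xirp2 and Myot the overloaded heart lay further from the embryo than the sham heart did.

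The other genes with the largest excess over the embryo were Tuba8 (an alpha-tubulin of muscle, 455 CPM in TAC and 0.42 at E13.5), the class I antigen gene H2-Q6, Ckmt2 (mitochondrial creatine kinase, 2293 and 2.85 CPM), the endothelial antigen gene Ly6c1, Cilp, Xdh (xanthine dehydrogenase), Ces3 (a carboxylesterase) and Rpl3l. Rpl3l stood at 194, 227, 197 and 204 CPM in TAC, at 243 to 279 in sham and at 0 to 1.09 (median 0.35) at E13.5. TAC lay below sham (-0.54 ± 0.06, adjusted p = 1.19e-05) and far above E13.5 (8.98 ± 0.22). Ces3 was likewise below sham, at 52.6 ± 6.45 CPM against 138.5 ± 10.2, and above E13.5 by 9.06 ± 0.23. H2-Q6 has close paralogues and 51.2% of its exonic bases to itself, so its level is uncertain.

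Calcium handling genes were higher in 13 of 19, lower in 2, within 2-fold in 3 and undecided in 1 (median 1.66). With library size alone 7 of 19 were higher and 4 lower (median 0.76). S100a1, a calcium sensor, was at 1524 and 52.4 CPM and Hrc, a calcium store protein, at 2659 and 166 CPM in TAC and E13.5. The lower members were Casq1, the skeletal calsequestrin (33.6 and 188 CPM), which was higher in TAC than in sham (adjusted p = 0.0394) but overlapped unoperated adults (18.2 to 48.0 CPM in TAC and 11.1 to 91.6 at 6 weeks, on the scale over 27 libraries), and Fkbp1b (1.10 and 2.98 CPM). The exchanger Slc8a1 was within 2-fold (559 and 756 CPM), with 43.1% of its exonic bases outside other features. Atp2a2 and Sln could not be measured. Ion channels and gap junctions were higher in 17 of 25, lower in 3, within 2-fold in 3 and undecided in 2 (median 2.20). Kcnip2, a subunit of the transient outward potassium channel, was at 370 and 0.96 CPM, and Hcn2 at 87.2 and 1.001. Connexin 40 (Gja5), at 13.2 ± 1.06 against 265 ± 19.3 CPM, and the L-type channel Cacna1d, at 3.15 and 31.0, were lower, and both are known from atria and the conduction system. Kcnh2 was within 2-fold (223 and 175 CPM).

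Genes of oxidative metabolism stayed far above the embryonic level. Fatty acid oxidation genes were higher in 27 of 29, with Cpt1a within 2-fold (median 2.66). Citric acid cycle genes were higher in 20 of 20 (median 2.11, with 12 of 20 higher by library size alone). Oxidative phosphorylation genes were higher in 36 of 39 (median 2.36). Ucp3, a mitochondrial carrier induced by fatty acids, was at 67.7 ± 15.6 CPM in TAC, 124 ± 22.6 in sham and 0.34 ± 0.20 at E13.5. Ogdh, a subunit of the oxoglutarate dehydrogenase complex, was at 5329 and 580 CPM in TAC and E13.5, and the muscle cytochrome oxidase subunits Cox8b at 1045 and 19.6 and Cox7a1 at 911 and 28.9. In TAC against sham, 21 fatty acid oxidation genes were lower and 1 higher, and their summed level was 14700 to 18010 CPM in TAC, 18820 to 19900 in sham and 1697 to 2084 at E13.5. Every TAC library thus lay below every sham library and far above the embryo in this sum.

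Metabolic regulators were higher in 9 of 14 and within 2-fold in 3 (median 1.98), led by Rxrg (103 and 1.83 CPM), a retinoid receptor, and Klf15 (105 and 6.43 CPM), a factor of fasting metabolism. Of 22 glycolysis and glucose uptake genes, 4 were lower, 9 within 2-fold, 7 higher and 2 undecided (median 0.51, and -0.39 with library size alone). This split is close to that over all coding genes tested (20.2% lower, 42.0% within, 25.3% higher), so the list as a whole does not stand out. Slc2a1, the fetal glucose transporter, was at 56.6 ± 4.24 and 361 ± 46.7 CPM, the lactate transporter Slc16a3 at 12.4 ± 3.67 and 180 ± 31.8, and the aldolase Aldoc at 0.47 and 12.8. Slc2a4, the insulin-responsive transporter, was at 900 ± 106 and 42.7 ± 3.38 CPM. Lactate dehydrogenase A (Ldha) was within 2-fold, at 716 ± 66.5 and 668 ± 83.4 CPM, a value that turned from 0.08 to -0.22 with upper-quartile scaling.

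Stretch and stress genes were higher than in the embryo in 22 of 26 (median 2.84), and their summed level was 42970 to 57420 CPM in TAC, 21970 to 25800 in sham and 7168 to 8791 at E13.5. Ace, angiotensin-converting enzyme, was at 359 ± 45.8 and 4.44 ± 0.79 CPM in TAC and E13.5, and Hspb6, a small heat shock protein, at 2438 and 37.3. Myc was lower (18.1 and 38.4 CPM) and Vim, the intermediate filament of mesenchymal cells, undecided (709 and 1320 CPM, -0.92 ± 0.09). Antigen presentation and complement genes were higher in 14 of 14 (median 4.85). Cd74, the class II invariant chain, was at 562, 725, 567 and 554 CPM in TAC, at 419 to 482 in sham and at 0.69 to 8.65 (median 1.36) at E13.5, and H2-Aa was higher by 7.25 ± 0.26, with 30.4% of its exonic bases outside other features. Macrophage markers moved with this group: 11 of 13 were higher (6 of 13 with library size alone), with a summed level of 873 to 1257 CPM in TAC, 565 to 677 in sham and 183 to 245 at E13.5. Their part in it was not tested.

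Some genes that were low in the embryo against sham lay near the embryonic level in TAC. Of the 3499 fetal-low features, 173 were within 2-fold, and the coding genes among them with the largest drop from sham, a ranking added after the data were seen, were Hlf, Clcn1, Amd1, Hisppd1 and Gpr22. Hlf, a clock-controlled transcription factor, stood at 17.4, 16.4, 22.5 and 17.2 CPM in TAC, at 9.45 to 15.2 (median 12.4) at E13.5 and at 61.3, 50.5, 61.4 and 60.9 in sham. TAC lay just above the embryo (0.56 ± 0.13, adjusted p = 5.93e-04) and far below sham (-1.83 ± 0.12, adjusted p = 5.39e-08). On the scale over 27 libraries unoperated adults held 25.4 to 77.5 CPM of Hlf against 13.99 to 19.8 in TAC, without overlap. On the same scale Clcn1, Hisppd1 and Gpr22 were likewise higher in every unoperated adult than in every TAC library. Amd1 was not: unoperated adults held 3.49 to 9.63 CPM, overlapping TAC (4.30 to 7.74) and E13.5 (3.19 to 6.17), and sham alone stood apart at 13.7 to 18.3. Clcn1, the muscle chloride channel, was at 3.65 and 3.55 CPM, Amd1, a polyamine synthesis enzyme, at 7.22 and 5.40, the inositol phosphate kinase Hisppd1 at 76.3 and 57.2, and the orphan receptor Gpr22 at 4.72 and 3.61. With library size alone Hlf, Clcn1, Amd1 and Hisppd1 lay below E13.5, by 0.34 to 0.88 on the log2 scale.

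Other clock genes stayed above the embryo: 9 of 14 were higher, 4 within 2-fold and 1 undecided (median 1.54). With library size alone 5 of 14 were higher and 7 within 2-fold (median 0.64). Dbp, a clock output factor, was at 85.5 ± 19.6 CPM in TAC, 196 ± 41.5 in sham and 6.01 ± 1.34 at E13.5. In TAC against sham 9 clock genes were lower and 2 higher. Clock was at 64.5 and 41.8 CPM and Cry2 at 62.6 and 50.5 in TAC and E13.5. The only coding gene among the 3 fetal-low features below the embryo was Gbp1, an interferon-induced GTPase, with 9 counts in TAC (0.28 ± 0.32 CPM) against 0.86 ± 0.30 at E13.5 and 4.54 ± 5.35 in sham (adjusted p = 0.0117, and 0.330 with sham, TAC and E13.5 in 1 fit). It was named after its value was seen.

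**Figure D5:**
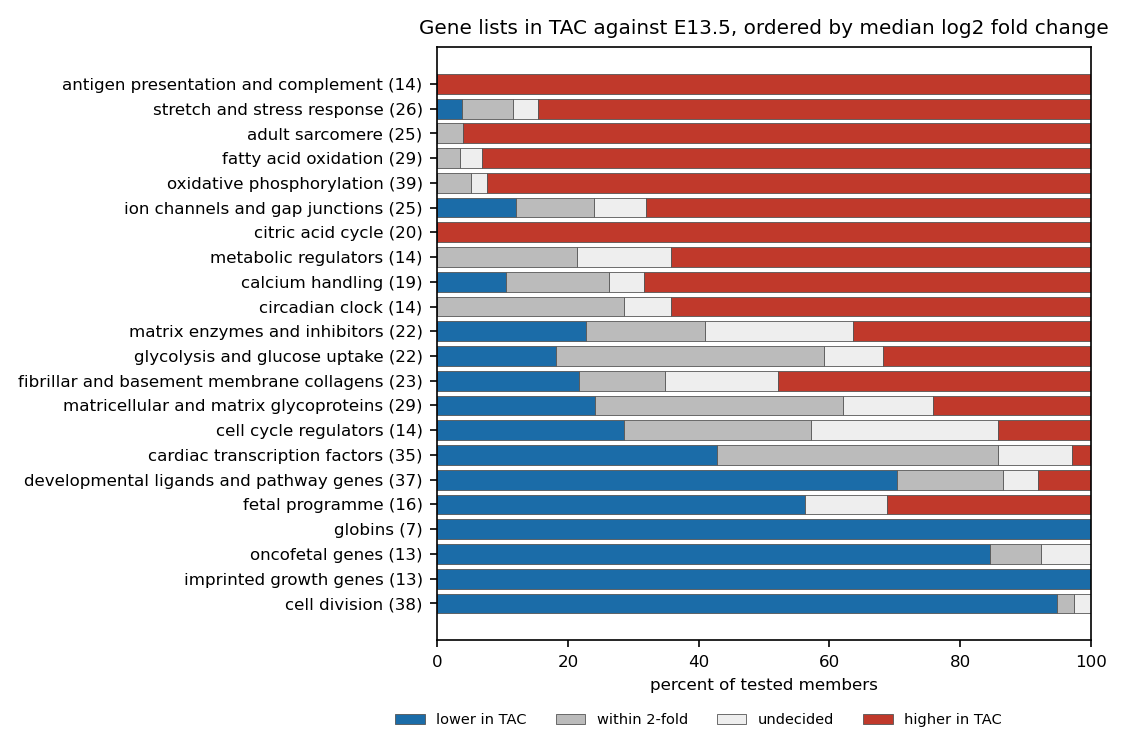
Percent of tested members (x axis) of 22 gene lists that were lower, within 2-fold, undecided or higher in TAC against E13.5, ordered by median log2 difference, with the number tested in brackets. Cell division, imprinted growth genes, oncofetal genes and globins lie at the lower end, and antigen presentation, stretch and stress, and sarcomere genes at the upper end.

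LncRNA features were set beside coding genes by class. Of 1424 fetal-high lncRNA features, 1294 (90.9%) were lower in TAC, 27 within 2-fold, 103 undecided and none higher, against 2306 (81.2%), 240, 289 and 6 of 2841 coding genes. The difference between these shares was not tested. Because the libraries are not strand-specific, reads of an lncRNA and of a gene that overlaps it cannot be told apart. Of the 329 fetal-high lncRNA features that overlap no coding gene, 290 (88.1%) were lower and 10 within 2-fold.

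The 4 features of that kind with the largest deficit were n343163 (chromosome X, 100219408 to 100222601, mm9), n282552 and n272395 (chromosome 6, 90727735 to 90731299 and 90730475 to 90732075) and n278131 (chromosome 2, 180056059 to 180058852). n343163 averaged 4.88 ± 0.65 CPM at E13.5 and had no count in TAC, at least 52.2-fold lower. n282552 and n272395 overlap each other, so they are not independent, and were at least 38.2-fold and 26.4-fold lower. n278131 averaged 13.4 ± 1.98 CPM at E13.5 and had 1 count in TAC (ratio 426, 95% counting interval 76.3 to 16820).

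The largest excess over the embryo was in n269715 (chromosome 19, 27335224 to 27336813), n295544 (chromosome 17, 32044823 to 32045974), n287430 (chromosome 13, 32792702 to 32794504) and n293833 (chromosome 4, 119963954 to 119976497). n269715 and n295544 had no count at E13.5 and were at least 375-fold and 214-fold higher in TAC, at 12.2 ± 3.16 and 6.93 ± 1.88 CPM. n295544 also rose over sham (2.14 ± 0.21 CPM, adjusted p = 9.45e-05), whereas n287430 fell from 76.9 ± 6.89 in sham to 44.4 ± 6.05 CPM in TAC and stayed above the embryo by 8.52 ± 0.27 (9.23 without E13.5 replicate 5).

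Markers of other cell types differed between the samples beside the genes above. All 11 epicardial markers were lower in TAC (median -5.22), summing to 340 to 430 CPM at E13.5, 34.4 to 56.8 in TAC and 18.9 to 25.5 in sham, and Muc16 was at 0 in TAC. Valve and cushion markers were lower in 6 of 8 and within 2-fold in 2, at 316 to 441 CPM against 67.6 to 79.5, and Col9a1 was at 0. Atrial markers were lower in 5 of 10, higher in 1 (Nppa), within 2-fold in 1 and undecided in 3. Endothelial markers were higher in 8 of 12, at 1354 to 1612 CPM at E13.5 and 2939 to 3472 in TAC, pericyte markers in 4 of 5, smooth muscle markers in 4 of 7 with 2 lower, and fibroblast markers in 5 of 10. With library size alone, endothelial markers were higher in 1 of 12, with 7 within 2-fold, 1 lower and 3 undecided. Pericyte markers were then higher in 2 of 5, smooth muscle markers in 1 of 7 with 3 lower, and fibroblast markers in 5 of 10 with 3 lower. All 4 tested lymphocyte markers were higher, at 1.59 to 7.94 and 19.1 to 23.2 CPM. Liver markers Alb, Afp, Apob and Fgb were at 0 in TAC and summed with the rest of their list to 2.20 to 20.6 CPM at E13.5. Nerve and glia markers (15.03 to 108 CPM at E13.5, 11.5 to 15.2 in TAC) were lower in 1 of 6, and skeletal muscle markers (7.19 to 15.7 and 4.14 to 8.07 CPM) in 2 of 3. No adipocyte or lung marker passed the filter. How far the gene differences reflect these cell types was not tested.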

How the data were processed

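Polyadenylated RNA of 27 hearts was sequenced from 1 end without strand information, as the labels' protocols state. The authors deposited raw counts per feature, and per the submitters' processing notes used Bowtie, TopHat 1.3.0 and HTSeq with mouse builds mm9 and NCBIM37. DESeq and edgeR are named there too. The counting mode is not given in the sources used here. The total line was dropped. The embryos' age field runs on in steps from E13.5, and the titles, which all give E13.5, were used.

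Here low features were removed with filterByExpr (at least 10 counts in enough libraries and 15 in all), TMM scaling was applied, and edgeR's quasi-likelihood test was run with robust dispersions (edgeR 4.0.16, limma 3.58.1, R 4.3.3). TAC against E13.5 used 11 libraries, TAC against sham 8 and E13.5 against sham 11. Log2 fold changes come from these fits, and CPM from 1 TMM scaling over the 15 libraries of the 3 groups, or over 27 where stated. The SE of a log2 fold change was taken as its size divided by the root of the F statistic. Where a whole group had no count, the fold is a bound that sets it to 3 counts, and those with 1 to 3 counts got a ratio with a 95% Poisson interval, both covering counting error only. Figures used Python 3.11.15 and matplotlib 3.10.9. The fits were run on simulated counts in which few features changed, so that run does not test scaling where most features differ.

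Each library is labelled as a separate sample; whether each is 1 animal is not stated beyond that, so p-values measure the spread between these samples. Replicate pairs all differed by more than sampling noise. Same-numbered libraries did not deviate together (correlations -0.06 to 0.02 in TAC and E13.5).

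Named genes were the 10 most changed coding genes each way (mean at least 5 CPM, at least 50% own exonic bases, groups apart), the 10 fetal-high genes most exceeded and the 10 reached with the largest rise over sham, 4 lncRNA features in each direction (at least 1 CPM), the fetal programme, the isoform pairs and leading members of each list. The members and lists were chosen with earlier results of these data known. The distance measure, the fetal-low set, the unoperated reference for TAC against sham, scaling by library size alone and the genes said to be named after their values were seen were added after the data were examined. Alternatives were RLE and upper-quartile scaling, other filters, DESeq2 1.42.0, limma-voom, a test against 2-fold, fits with 15 or 27 libraries, a replicate block and each library left out. Of 617 listed genes, 616 matched, 4 of them by Ensembl ID. A gene of 1 list is not reported here.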

Additional observations from a re-analysis of the deposited data

Results flagged for a closer look

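In 15 of 135 groups of 4 to 7 libraries examined (11.1%), 1 library stood apart from the others by Dixon's test at the 95% level, which chance alone does in about 1 in 20 groups. In TAC replicate 2, Nppb was at 1056 CPM (nearest library 699), Xirp1 at 1413 (1129) and Cd74 at 725 (567). In TAC replicate 3, which went against its sex label, Timp1 was at 59.0 CPM (nearest 20.7), Meox1 at 36.0 (56.0) and Hlf at 22.5 (17.4). TAC replicate F1, the other library that went against its label by its Y-linked counts, had the lowest Myh7 share of Myh7 and Myh6, at 1.76% (nearest 3.84%).

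Among embryos, replicate 3 had the highest Col1a1 level, at 2231 CPM (nearest 1463). E13.5 replicate 1 stood apart in 4 isoform shares: Myh7 at 64.9% (nearest 56.6%), Tnni1 at 77.8% (73.5%), Myl7 at 45.7% (54.6%) and Pgam1 at 3.002% (2.18%). In sham, Hlf was at 50.5 CPM in replicate 2 (nearest 60.9), Rpl3l at 243 CPM in replicate 3 (275) and Ckmt1 at 0.0100% of Ckmt1 and Ckmt2 in replicate 1 (0.0036%).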

How the results depend on the processing

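With library size alone, 3274 features were called higher and 13230 lower in TAC than at E13.5. The fetal-high set was drawn anew under each scaling and grew with library size alone. Of that larger set 7497 features were lower, 291 within 2-fold, 3 higher and 452 undecided. Upper-quartile scaling left 2 fetal-high features higher. A test against 2-fold called 3211 higher and 3889 lower, and coding genes with at least 50% own bases gave 5192 lower. Fetal-high features at least 4-fold above sham were 2115 lower, 17 within, 3 higher and 41 undecided, and a 1.5-fold margin gave 40 within and 620 undecided. With unoperated adults as reference the set held 2685 features, of which 1966 were lower and 446 within.

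Same-numbered libraries did not deviate together, so the numbers do not pair them. With the replicate block over replicates 1 to 3, TAC against sham called 1962 higher and 1767 lower (2213 and 2035 without the block in the same libraries), and TAC against E13.5 called 6077 and 6651 (6163 and 6902). Leaving out 1 library at a time gave 6721 to 7032 higher and 7920 to 8090 lower than at E13.5, and 4 to 8 fetal-high features higher.

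Library size alone turned these log2 differences from E13.5: Thbs4 -0.70, Mgat5b -0.67, Meox1 -0.59, Nkd2 -0.39, Cpt1a -0.46, Gmnn -0.31, Sall4 -0.75, Sparc -0.55, Fbn1 -0.74, Mmp2 -0.41, Notch1 -0.51, Mef2d -0.081, Kcnh2 -0.56, Ldha -0.82, Cry2 -0.61, Clock -0.30, Hlf -0.34, Clcn1 -0.88, Amd1 -0.50 and Hisppd1 -0.50. Upper-quartile scaling turned Ldha (-0.22) and Cry2 (-0.0060). A turn was counted only where the gene passed the test in the main or the alternative fit. Of 3304 values for 133 named genes over all settings, 22 turned in this way, 53 lost and 27 gained a call, and 3202 did none of these. The 3202 include changes of sign that passed in neither fit, such as Thbs4 (-0.099), Mgat5b (-0.062) and Fbn1 (-0.14) with upper-quartile scaling.

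Values from 1 or a few counts moved with 1 library: without TAC replicate 2, Hba-x was -18.71, n278131 -10.28 and Bmp10 -10.27, without TAC replicate 1 Hapln1 was -11.49, and without TAC replicate 3 Hsd3b6 was -14.60 and Gbp1 -2.64. Features at 0 are limited by depth and given as bounds.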
